A study of Mus musculus with 7 samples.

Results

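The 52 genes described here encode the machinery that copies DNA in S phase, with the E2F factors and E cyclins that act at its start. They were listed by gene symbol, with earlier results of these data known, and all 52 had a row among the 18468 genes of the deposited count table. The cells were C3H10T1/2, an established mouse mesenchymal line that can turn toward bone, cartilage or fat. All cells were kept without serum for 12 h and stayed without serum through the treatment. The cells of 4 libraries were then given 2 μM purmorphamine, a small molecule that binds and activates Smoothened, for 48 h, and those of the other 3 were given the vehicle alone (0.02% DMSO) for the same time. The libraries keep the numbers of the labels, DMSO replicates 2, 3 and 4 and purmorphamine replicates 5, 6, 7 and 8. The labels do not say whether they came from separate cultures, so the p-values measure only the spread between these libraries.

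A cell prepares its origins of replication before S phase. The origin recognition complex (Orc) with Cdc6 and Cdt1 loads the Mcm2 to Mcm7 ring, which is called licensing, and geminin (Gmnn) binds Cdt1 and prevents a further round. The kinase Cdc7 with its activator Dbf4, together with Mcm10, Cdc45 and the GINS complex, turns the loaded ring into a moving helicase. Polymerase alpha with primase starts each strand, polymerases delta and epsilon extend it on the Pcna clamp, and ribonucleotide reductase and thymidine kinase supply nucleotides. Most of these genes are known as targets of E2F factors and are transcribed mainly around the start of S phase.

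RNA of 40 of the 52 genes was higher with purmorphamine, that of 3 was lower and 9 were not called. Calls were made where the adjusted p (Benjamini-Hochberg) of edgeR's quasi-likelihood test lay under 0.2, over the 12388 genes with enough reads to be tested, which include all 52 members. Of all genes tested, 31.4% were called higher and 31.1% lower, against 76.9% and 5.77% of the members. At an adjusted p under 0.05, 35 members were called higher and 1 lower, where 23.2% of all genes tested were higher and 23.6% lower. The changes were small: the median log2 fold change of the members was 0.35 (1.28-fold), where the median of all genes tested was 0.0038, and the members ranged from -0.31 to 0.88. The members called and at least 1.5-fold higher were 6 (Cdc7, Pole, Tk1, E2f2, E2f7 and E2f8), 11.5% of the list against 7.89% of all genes tested, and none was called and lower by that much (7.56% of all genes tested). In 36 members (69.2%) every purmorphamine library held more deposited reads than every DMSO library, as in 29.1% of all genes tested. In no member did every one hold fewer (20.4% of all genes tested). Here and below, overlap of a gene's groups is judged on deposited reads. The fit also scales libraries (TMM factors 0.978 to 0.986 with DMSO, 1.01 to 1.02 with purmorphamine), which lowers purmorphamine levels relative to DMSO. After this scaling the groups of Pola1, Prim2, Rfc2, Rpa2 and Ccne2 overlapped. RNA of a population of cells cannot tell a larger share of cells in S phase from more RNA per cell.

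**Figure D1:**
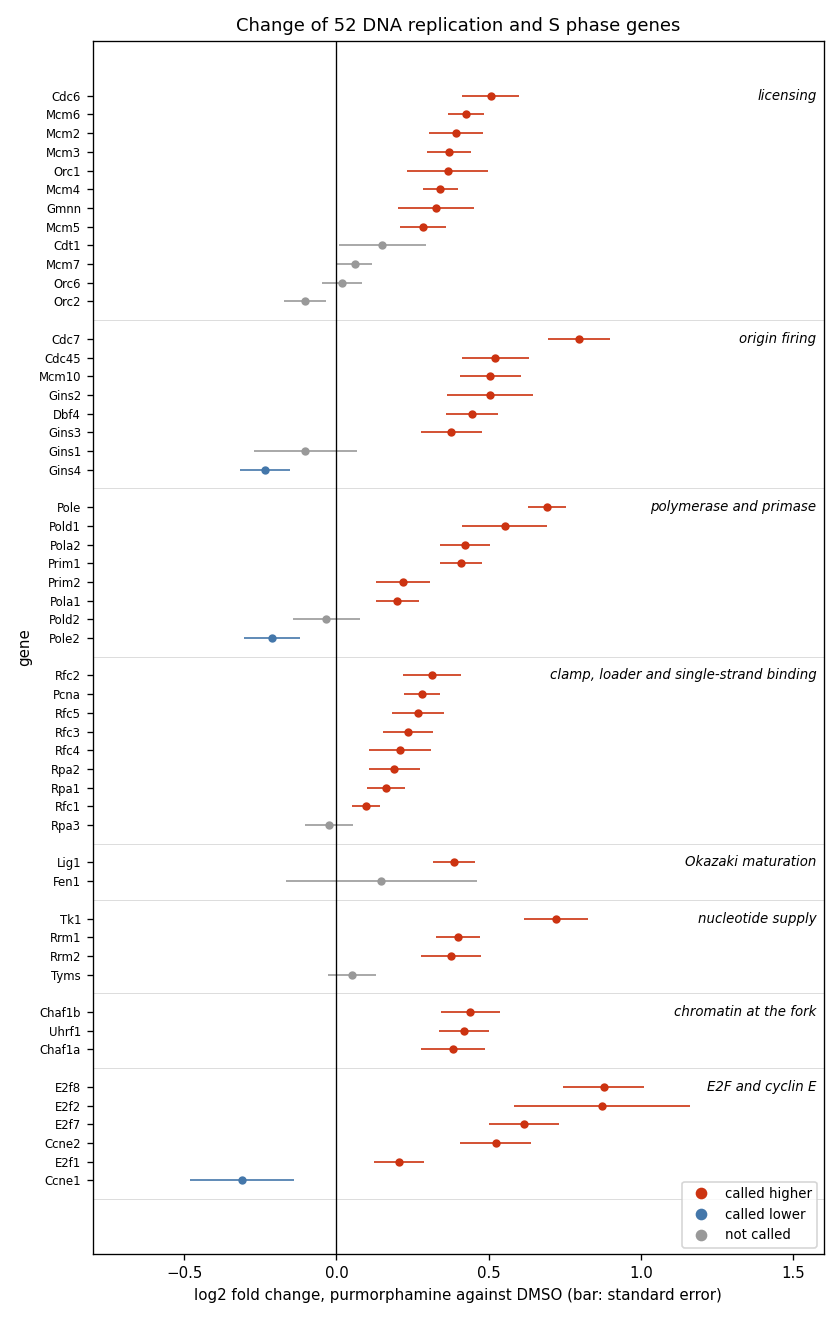
Log2 fold change, purmorphamine against DMSO, of the 52 genes grouped by role, with the standard error from the edgeR fit as bars. Red points were called higher (40 genes), blue points lower (Gins4, Pole2 and Ccne1) and grey points were not called (9 genes). The points lie between -0.31 and 0.88, most of them to the right of 0.

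By role, the median log2 fold change was 0.57 (1.48-fold) for the E2F factors and E cyclins, 0.47 (1.39-fold) for origin firing, 0.42 (1.34-fold) for chromatin at the fork, 0.39 (1.31-fold) for nucleotide supply, 0.33 (1.26-fold) for licensing, 0.31 (1.24-fold) for polymerase and primase, 0.27 (1.20-fold) for Okazaki fragment maturation and 0.21 (1.16-fold) for the clamp, its loader and the single-strand binding proteins. The classes hold between 2 and 12 genes, and the spread within most of them was wider than the gap between their medians. Licensing genes spanned -0.10 to 0.51, polymerase and primase genes -0.21 to 0.69, and nucleotide supply genes 0.05 to 0.72, so the ranges of these classes overlapped over most of their length.

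To show the promoters of genes with unlike changes, the 250 bases before the RefSeq start are given for E2f7, Cdc6 and Mcm6, which were called higher and hold letters of an E2F site, for Mcm7, which holds them and was not called, and for E2f8, which has no exact match and had the highest log2 fold change of the members. The E2f8 stretch does hold attggcgc, which differs from the searched TTTGGCGC only in its first base. The E2F letters searched were TTTCCCGC, TTTCGCGC, TTTGCCGC and TTTGGCGC on both strands, and matches are in capitals. The sequences are from RefSeq on GRCm38.p6, read 5′ to 3′ on the strand of the gene. E2f7 lies on chr10:110745189-110745438 (plus strand), Cdc6 on chr11:98907901-98908150 (plus), Mcm6 on chr1:128359706-128359955 (minus), Mcm7 on chr5:138171884-138172133 (minus) and E2f8 on chr7:48881597-48881846 (minus). In GENCODE M21 the Cdc6 and Mcm7 genes begin further upstream, so their stretches lie inside the genes annotated there.
E2f7: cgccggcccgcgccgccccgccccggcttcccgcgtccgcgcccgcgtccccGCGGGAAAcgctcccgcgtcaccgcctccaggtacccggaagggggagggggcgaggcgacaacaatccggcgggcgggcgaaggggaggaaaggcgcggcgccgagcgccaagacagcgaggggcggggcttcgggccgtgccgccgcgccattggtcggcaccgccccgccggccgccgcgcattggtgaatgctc
Cdc6: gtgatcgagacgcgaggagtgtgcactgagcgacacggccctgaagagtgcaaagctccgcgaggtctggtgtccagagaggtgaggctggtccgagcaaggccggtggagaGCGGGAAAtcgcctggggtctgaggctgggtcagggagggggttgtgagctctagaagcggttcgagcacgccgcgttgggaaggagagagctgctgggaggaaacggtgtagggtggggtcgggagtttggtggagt
Mcm6: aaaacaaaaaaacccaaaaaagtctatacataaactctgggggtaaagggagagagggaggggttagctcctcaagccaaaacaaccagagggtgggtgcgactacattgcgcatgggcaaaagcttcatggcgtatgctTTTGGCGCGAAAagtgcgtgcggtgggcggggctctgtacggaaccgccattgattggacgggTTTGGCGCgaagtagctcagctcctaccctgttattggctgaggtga
Mcm7: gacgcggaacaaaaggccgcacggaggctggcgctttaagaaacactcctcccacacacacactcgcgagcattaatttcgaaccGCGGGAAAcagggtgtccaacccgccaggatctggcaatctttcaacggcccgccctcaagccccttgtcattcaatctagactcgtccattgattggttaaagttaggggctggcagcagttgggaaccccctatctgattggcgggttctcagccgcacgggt
E2f8: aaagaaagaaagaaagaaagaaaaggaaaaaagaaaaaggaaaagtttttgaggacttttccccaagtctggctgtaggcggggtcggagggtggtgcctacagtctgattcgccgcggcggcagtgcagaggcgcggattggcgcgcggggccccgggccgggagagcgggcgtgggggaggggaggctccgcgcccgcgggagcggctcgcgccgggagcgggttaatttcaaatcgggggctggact

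The Mcm6 stretch holds 3 matches, of which 2 overlap on opposite strands in the first run of capitals. The other matches begin 198 bases before the start in E2f7, 138 in Cdc6 and 165 in Mcm7. In windows of 300 bases, from 250 before to 50 after the start, 16 of the 43 members with a RefSeq promoter held one of these letter strings (37.2%), against 704 of 27025 genes (2.60%). Of the 16 with a match, 13 were called higher, 1 lower (Pole2) and 2 were not called, and their median log2 fold change was 0.37. The 27 without one had 20 higher, 1 lower and 6 not called, with a median of 0.28. The letters CCAAT, searched on both strands in the same windows, were in 27 of the 43 members (62.8%) and 41.1% of all genes, and the medians with and without them were 0.37 and 0.33. Gmnn, Gins1, Gins2, Mcm4, Gins4, Ccne2, Rfc2, Pole and Prim2 had no entry in the promoter table.

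Among the 12 licensing genes, 8 were called higher and 4 were not called. Cdc6, which helps load the Mcm ring, had 154, 165 and 147 reads in the DMSO libraries and 231, 208, 224 and 249 in the purmorphamine libraries. It was higher in each purmorphamine library than in any DMSO library, by 1.42-fold (95% interval 1.24 to 1.63, edgeR adjusted p = 0.000296). Mcm6 was the most changed of the ring subunits, with 1171, 1231 and 1169 reads against 1605, 1588, 1555 and 1855. The groups did not overlap, and the difference was 1.34-fold (interval 1.23 to 1.46, adjusted p = 1.59e-05).

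The other subunits of the ring moved by different amounts. Mcm2, Mcm3, Mcm4 and Mcm5 were called higher without overlap, by 1.31-fold, 1.29-fold, 1.27-fold and 1.22-fold. Mcm7 had 899, 948 and 1000 reads with DMSO and 1040, 1071, 929 and 1048 with purmorphamine, so its groups overlapped, and at 1.04-fold (interval 0.957 to 1.13, adjusted p = 0.426) it was not called. Its upper bound lies below the 1.23-fold lower bound of Mcm6. The test did call it when purmorphamine replicate 7 was left out (log2 fold change 0.11, adjusted p = 0.117) and when only library totals were used for scaling (0.11, adjusted p = 0.150). Per kb of exon in GENCODE M21, the mean level of the ring genes in DMSO ran from 53.7 reads per kb for Mcm2 to 394 for Mcm4, with 255 for Mcm6 and 214 for Mcm7. Here and below, the length is that of all annotated exons of a gene joined. Levels compared between genes therefore depend on the annotation.

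The 3 Orc genes differed. Orc1, the subunit whose level is known to follow the cell cycle, had 71, 67 and 57 reads with DMSO and 80, 90, 92 and 84 with purmorphamine, a difference of 1.29-fold (interval 1.06 to 1.57, adjusted p = 0.0335) with no overlap. Orc2 had 669, 607 and 622 reads against 633, 536, 621 and 643, which overlapped at 0.931-fold (interval 0.840 to 1.03, adjusted p = 0.239). Without purmorphamine replicate 8 it was called lower, narrowly (log2 fold change -0.13, adjusted p = 0.196). The counts of Orc6 were 426, 430 and 411 against 428, 422, 456 and 461, the smallest change of the class (1.01-fold, interval 0.920 to 1.11, adjusted p = 0.849). Within libraries the ratio of Orc1 to Orc2 was 0.104 with DMSO and 0.144 with purmorphamine, higher in all 4 purmorphamine libraries than in any DMSO library.

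Gmnn, the inhibitor of licensing, was called higher and Cdt1, which it binds, was not called. Gmnn had 147, 125 and 144 reads with DMSO and 207, 144, 168 and 200 with purmorphamine, where replicate 6 equalled DMSO replicate 4, and was higher by 1.25-fold (interval 1.04 to 1.51, adjusted p = 0.0427). Cdt1 had 68, 61 and 71 reads against 89, 65, 73 and 79, and its groups overlapped at 1.11-fold (interval 0.899 to 1.37, adjusted p = 0.414). Without purmorphamine replicate 6 it was called, narrowly (adjusted p = 0.1996). GENCODE M21 places another gene, Gm20388, over Cdt1 on the same strand, so reads of these genes may not be separable.

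Of the 8 genes of origin firing, 6 were called higher, 1 lower and 1 was not called. Cdc7, the kinase that fires licensed origins, had 150, 148 and 122 reads with DMSO and 244, 232, 247 and 282 with purmorphamine. At 1.74-fold (interval 1.49 to 2.02, adjusted p = 6.9e-06) it changed more than any other gene of the class. Dbf4, its activating subunit, had 423, 401 and 367 reads against 537, 495, 554 and 646, a difference of 1.36-fold (interval 1.20 to 1.54, adjusted p = 0.000397). Both were higher in every purmorphamine library. The kinase subunit moved further than its activator: the ratio of Dbf4 to Cdc7 reads fell from 2.83 to 2.21, with no overlap between groups.

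Cdc45, which joins the ring in the active helicase, had 160, 147 and 123 reads with DMSO and 217, 220, 181 and 233 with purmorphamine (1.44-fold, interval 1.22 to 1.69, adjusted p = 0.000992). Its groups did not overlap, and the same held for Mcm10, at 1.42-fold. The 4 GINS genes, whose products form one complex in equal amounts, went different ways. Gins2 and Gins3 were called higher without overlap, by 1.42-fold and 1.30-fold. Gins4 had 408, 423 and 466 reads with DMSO and 425, 344, 356 and 395 with purmorphamine, was called lower at 0.851-fold (interval 0.754 to 0.959, adjusted p = 0.0273) and overlapped through replicate 5. Gins1 had few reads, 57, 61 and 69 against 62, 43, 70 and 65, and was not called (0.932-fold, interval 0.727 to 1.19, adjusted p = 0.657). Gins4 also stood highest per annotated exon length with DMSO, at 320 reads per kb, beside 56.1 for Gins3, 41.1 for Gins1 and 16.7 for Gins2. These values depend on the annotated lengths, such as 1349 bases for Gins4 and 4097 for Gins2.

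Of the 8 polymerase and primase genes, 6 were called higher, 1 lower and 1 was not called. Pole, the catalytic subunit of polymerase epsilon, had 367, 360 and 362 reads with DMSO and 617, 581, 592 and 634 with purmorphamine. Its libraries were tight within each group, and at 1.62-fold (interval 1.47 to 1.77) it had the lowest adjusted p of the 52 genes (9.14e-08). Pole2, the second subunit of the same enzyme, had 232, 224 and 249 reads against 211, 189, 206 and 233, and was called lower at 0.864-fold (interval 0.756 to 0.987, adjusted p = 0.0678) with overlap through replicate 8. That call was lost without DMSO replicate 4 (adjusted p = 0.248). GENCODE M21 has other genes on the same strand over both, Gm26277 and Gm15791 over Pole and Gm49384 over Pole2, and also over Pola1, Prim2 and Pold1.

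Polymerase delta split as well. Pold1, its catalytic subunit, had 68, 60 and 62 reads with DMSO and 107, 103, 80 and 94 with purmorphamine (1.47-fold, interval 1.20 to 1.80, adjusted p = 0.00353). Pold2, its second subunit, had 155, 185 and 177 reads against 187, 184, 142 and 183 and was not called (0.977-fold, interval 0.832 to 1.15, adjusted p = 0.831). Pold1 was above every DMSO library in every purmorphamine library, while the libraries of Pold2 were mixed.

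All 4 genes of polymerase alpha and primase were called higher, with no overlap in deposited reads. After the scaling of the fit, Pola1 in purmorphamine replicate 6 (661) lay below DMSO replicate 2 (683). Prim2 in purmorphamine replicates 6 and 7 (320.96 and 318.01) then lay just below DMSO replicate 4 (321.11). The second subunit, Pola2, had 301, 254 and 271 reads with DMSO and 357, 404, 360 and 405 with purmorphamine, a 1.34-fold difference (interval 1.19 to 1.51, adjusted p = 0.000449). Pola1, the catalytic subunit, had 670, 636 and 610 reads against 744, 673, 774 and 841 and differed by 1.15-fold (interval 1.04 to 1.27, adjusted p = 0.0285). Thus the catalytic subunit moved less here, unlike in polymerases delta and epsilon. Prim1, which joins the first ribonucleotides, had 574, 558 and 508 reads against 740, 676, 779 and 803 (1.33-fold, interval 1.20 to 1.47, adjusted p = 0.00012). Prim2, its regulatory partner, had 287, 272 and 314 reads against 354, 327, 320 and 399 (1.16-fold, interval 1.02 to 1.33, adjusted p = 0.0523) and was no longer called without DMSO replicate 3 (adjusted p = 0.206).

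**Figure D2:**
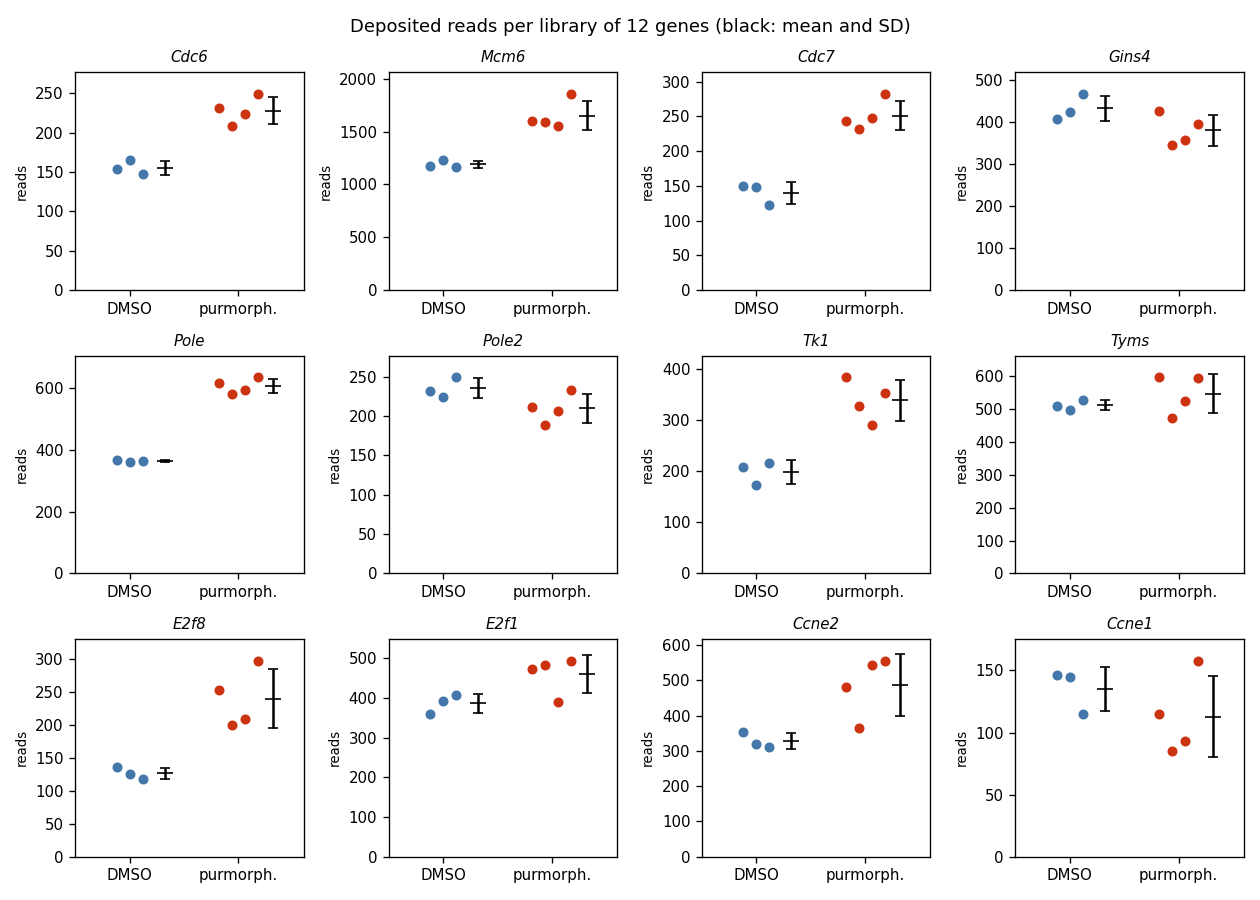
Deposited reads per library of 12 genes, with DMSO libraries in blue, purmorphamine libraries in red and the mean and SD of each group in black, and every vertical axis starting at 0. Pole shows the widest gap for its spread (360 to 367 reads against 581 to 634), and Gins4, Pole2, Tyms, E2f1 and Ccne1 show overlapping groups.

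The clamp, its loader and the single-strand binding proteins had the lowest median change of the 8 classes. Of these 9 genes, 8 were called higher, and none by as much as 1.25-fold. Rfc2, a subunit of the loader that opens the clamp, had 228, 245 and 282 reads with DMSO and 366, 317, 319 and 291 with purmorphamine (1.24-fold, interval 1.08 to 1.43, adjusted p = 0.0126). Pcna, the clamp itself, had 790, 801 and 794 reads against 1036, 897, 1018 and 1042 (1.22-fold, interval 1.11 to 1.33, adjusted p = 0.000909). Neither gene's groups overlapped in deposited reads. After the scaling of the fit, Rfc2 in purmorphamine replicate 8 (286) lay just below DMSO replicate 4 (288). Pcna has 2 named pseudogenes in GENCODE M21, so part of its reads could be split with them.

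Rfc1, Rfc3, Rfc4, Rfc5, Rpa1 and Rpa2 were called higher by between 1.07-fold (Rfc1) and 1.20-fold (Rfc5). The calls of Rfc1, Rfc4 and Rpa2 had adjusted p-values of 0.0899, 0.103 and 0.075 and each was lost when some single library was left out (Rfc1 without DMSO replicate 2 or 3, with adjusted p up to 0.232, Rfc4 without DMSO replicate 2 or purmorphamine replicate 5 or 8, up to 0.260, and Rpa2 without DMSO replicate 2 or purmorphamine replicate 5, up to 0.258). Rpa3, the smallest of the single-strand binding subunits, had 366, 344 and 315 reads with DMSO and 353, 322, 340 and 374 with purmorphamine. Its groups overlapped throughout, and it was not called (0.984-fold, interval 0.877 to 1.10, adjusted p = 0.832).

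Lig1, the ligase that seals Okazaki fragments, had 405, 435 and 405 reads with DMSO and 567, 540, 518 and 616 with purmorphamine, without overlap (1.31-fold, interval 1.18 to 1.45, adjusted p = 0.000232). Fen1, the flap nuclease that acts just before it, had only 11, 10 and 15 reads against 19, 13, 14 and 9. With so few reads a change could not be resolved at this depth (log2 fold change 0.15, interval -0.51 to 0.81, adjusted p = 0.732). Its level in DMSO was 4.95 reads per kb, where Lig1 had 97.2, and GENCODE M21 places Tmem258 and Gm10143 over it on the opposite strand.

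Of the 4 nucleotide supply genes, 3 were called higher. Tk1, the thymidine kinase of the salvage pathway, had 207, 172 and 216 reads with DMSO and 383, 327, 290 and 352 with purmorphamine. It was higher in every purmorphamine library, by 1.65-fold (interval 1.41 to 1.92, adjusted p = 2.39e-05). Rrm1, the large subunit of ribonucleotide reductase, had 2073, 1985 and 1993 reads against 2691, 2376, 2773 and 3156 (1.32-fold, interval 1.19 to 1.46, adjusted p = 0.000193), the most reads of any member. Rrm2, the small subunit, which is the one known to follow S phase, had 846, 786 and 743 reads against 1135, 826, 1047 and 1240 (log2 fold change 0.38, interval 0.17 to 0.59, adjusted p = 0.0049), with replicate 6 below DMSO replicate 2. The fold of each subunit lay within the interval of the other. Tyms, which makes thymidylate, had 510, 497 and 528 reads against 597, 472, 526 and 596 and was not called (1.04-fold, interval 0.923 to 1.16, adjusted p = 0.630). Its upper bound lies below the 1.41-fold lower bound of Tk1. Without purmorphamine replicate 6, where it was lowest, Tyms was called (log2 fold change 0.13, adjusted p = 0.120). It has a named pseudogene in GENCODE M21.

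The 3 genes of chromatin at the fork were all called higher with no overlap. Uhrf1, which brings maintenance methylation to new DNA, had 465, 437 and 425 reads with DMSO and 646, 572, 533 and 692 with purmorphamine (1.34-fold, interval 1.18 to 1.51, adjusted p = 0.00048). Chaf1a, the large subunit of the histone chaperone CAF-1, had 152, 163 and 192 reads against 255, 223, 202 and 230 (1.30-fold, interval 1.12 to 1.52, adjusted p = 0.00685). Chaf1b, its partner, had 135, 132 and 147 reads against 193, 185, 187 and 209 (1.36-fold, interval 1.18 to 1.56, adjusted p = 0.00116). The chaperone subunits differed little from each other in fold.

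The 6 E2F factors and E cyclins held both the highest and the lowest log2 fold changes of the members. E2f8, a repressor among the E2F family, had 135, 125 and 118 reads with DMSO and 252, 199, 209 and 297 with purmorphamine (1.84-fold, interval 1.51 to 2.23, adjusted p = 3.5e-05). E2f7, the closely related repressor, had 147, 140 and 156 reads against 241, 189, 238 and 268 (1.53-fold, interval 1.30 to 1.81, adjusted p = 0.00028). Neither overlapped between groups. The activators were less even: E2f2 was scarce, with 12, 22 and 17 reads against 34, 23, 25 and 47, and its 1.83-fold difference had a wide interval (1.20 to 2.80, adjusted p = 0.0204). E2f1 had 359, 391 and 408 reads against 474, 482, 390 and 494 and was higher by 1.15-fold (interval 1.02 to 1.30, adjusted p = 0.0506), with replicate 7 inside the DMSO range. Its upper bound lies below the lower bound of E2f8.

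The E cyclins, which activate Cdk2 at the entry to S phase, moved apart. Ccne2 had 354, 319 and 310 reads with DMSO and 482, 364, 543 and 556 with purmorphamine (1.44-fold, interval 1.21 to 1.70, adjusted p = 0.00143). All 4 were above the DMSO libraries in deposited reads. After the scaling of the fit, purmorphamine replicate 6 (357) lay below DMSO replicate 2 (361). Ccne1 had 146, 145 and 115 reads against 115, 85, 93 and 158, and its groups overlapped through replicates 5 and 8. Its call as lower (0.807-fold, interval 0.629 to 1.03, adjusted p = 0.148) passed only the wide threshold of 0.2. It was lost when DMSO replicate 2 or 3 or purmorphamine replicate 5, 6 or 7 was left out (adjusted p up to 0.345) and with library totals alone (0.228), and without replicate 8 it was at its strongest (log2 fold change -0.51, adjusted p = 0.00808).

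To compare partners with no scaling between libraries, the log2 ratio of their reads plus 1 was taken within each library for 11 pairs and tested over the 35 ways of dividing 7 libraries into 3 and 4, two-sided, with 0.0286 the smallest p possible. This was reached by 5 pairs, each with an adjusted p of 0.0629 over the 11 pairs and no overlap. The ratio of Pole2 to Pole was 0.648 with DMSO and 0.346 with purmorphamine, a log2 difference of -0.90 (SE 0.057, n = 3 and 4). Ccne2 to Ccne1 went from 2.42 to 4.35, a difference of 0.85 (SE 0.17). Pold1 to Pold2 went from 0.372 to 0.554 (0.58, SE 0.13), Orc1 to Orc2 differed by 0.47 (SE 0.12) and Dbf4 to Cdc7 by -0.36 (SE 0.049). With an adjusted p above 0.05 in a design this small, these are differences larger than the spread of the libraries, at the limit of what the test can reach.

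The ratios of Cdt1 to Gmnn (-0.17, SE 0.050) and of Pola1 to Pola2 (-0.23, SE 0.10) were also lower in every purmorphamine library, with an exact permutation p of 0.0571 (adjusted 0.0898). Prim1 to Prim2 differed by 0.19 (exact permutation p = 0.0857, adjusted 0.118) and E2f8 to E2f7 by 0.25 (p = 0.114, adjusted 0.140), both with overlap. For Chaf1a to Chaf1b (-0.06, SE 0.091, exact permutation p = 0.514) and Rrm2 to Rrm1 (-0.03, SE 0.070, p = 0.743) no difference between the groups was detected.

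**Figure D3:**
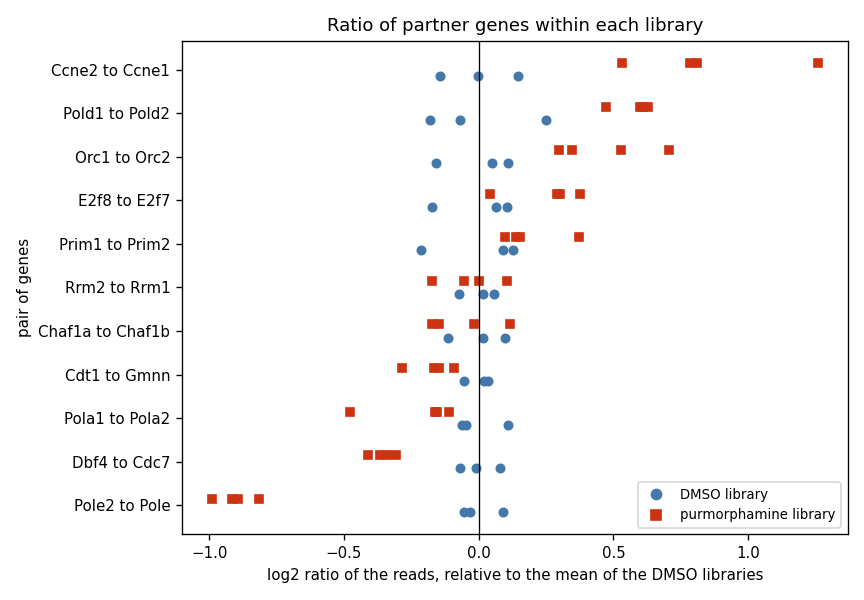
Log2 ratio of reads of 11 pairs of partner genes in each library, set relative to the mean of the DMSO libraries, with circles for DMSO and squares for purmorphamine. Pole2 to Pole lies 0.90 lower and Ccne2 to Ccne1 0.85 higher with purmorphamine, while Chaf1a to Chaf1b and Rrm2 to Rrm1 lie on both sides of 0.

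Summed over the 52 genes, the DMSO libraries held 1513, 1482 and 1506 counts per 1000000 of the library total (CPM) and the purmorphamine libraries 1923, 1756, 1822 and 2072, a ratio of 1.26 with no overlap. The sum of licensing genes differed by 1.24 times, that of polymerase and primase genes by 1.29 times and that of nucleotide supply genes by 1.34 times, of which Rrm1 gave most of the reads. Clamp, loader and single-strand binding genes differed by 1.17 times, origin firing by 1.28 times, Okazaki maturation by 1.34 times, E2F factors and E cyclins by 1.37 times and chromatin at the fork by 1.38 times.

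**Figure D4:**
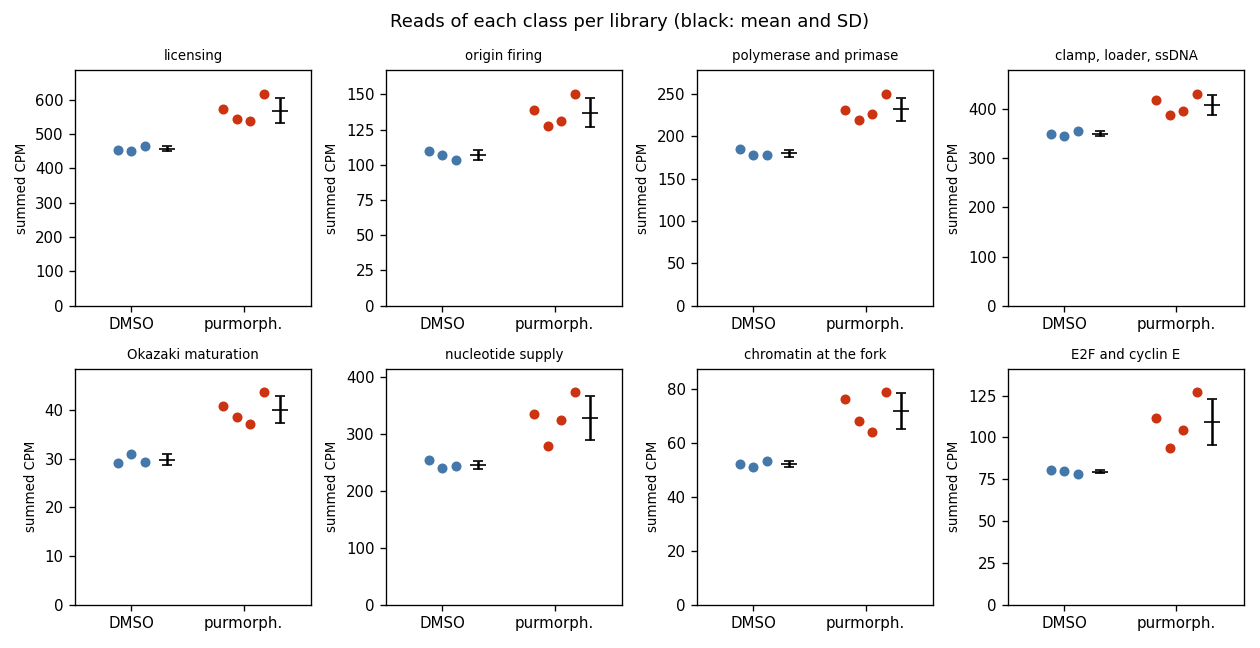
Summed CPM of each class in each library, with DMSO in blue, purmorphamine in red and the mean and SD of each group in black, on axes that start at 0. In all 8 classes each purmorphamine library lies above each DMSO library, and replicate 8, the rightmost red point, is the highest.

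The purmorphamine libraries differed in size of change. The median of the members' log2 levels against the DMSO mean was 0.37 in replicate 5, 0.19 in replicate 6, 0.24 in replicate 7 and 0.45 in replicate 8. Replicate 8 was the highest of the 4 in 35 of the 52 genes, where it was the highest in 22.1% of all genes tested, and replicate 6 was the lowest in 29, against 30.7% of all genes tested. In Rrm2, Gmnn and Tyms replicate 6 was the lowest of the 4. The 20 cell cycle genes described below had medians of 0.48, 0.19, 0.24 and 0.46 in the same libraries.

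Other replication genes that are not among the 52 also leaned upward, by less. Of 58 tested, 35 were called higher, 9 lower and 14 were not called, with a median log2 fold change of 0.20. These are 60.3% higher and 15.5% lower, against 31.4% and 31.1% of all genes tested. The largest increases were in Dscc1, part of an alternative clamp loader, with 40, 27 and 40 reads against 71, 55, 79 and 84 (1.96-fold), Rnaseh2c, a subunit of the enzyme that removes ribonucleotides from DNA, with 27, 13 and 18 against 40, 44, 23 and 28 (1.68-fold, with overlap), and Dna2, a flap nuclease and helicase, with 106, 119 and 75 against 168, 149, 171 and 196 (1.65-fold). The largest decreases were in Cdca7, a partner of the chromatin remodeller Hells, with 520, 473 and 453 reads against 350, 298, 290 and 337 (0.640-fold), Cks1b, a small subunit of Cdk complexes, with 481, 499 and 518 against 397, 400, 343 and 375 (0.734-fold), and Poldip2, a polymerase delta interacting protein (0.783-fold). Ticrr was not analysed here.

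The remaining E2F, pocket protein and DREAM genes, which control transcription of the replication genes, changed by smaller amounts. Of 16, 9 were called higher, 3 lower and 4 were not called, with a median log2 fold change of 0.13. The shares were 56.2% higher and 18.8% lower, against 31.4% and 31.1% of all genes tested. The count called higher depended on the setting. It was 6 with DESeq2, 6 without the filter on low counts and 7 to 11 with 1 library left out. At an adjusted p under 0.05 it was 6, since E2f5, Tfdp1 and Lin9 passed only the threshold of 0.2 (edgeR adjusted p of 0.172, 0.163 and 0.194). Mybl2 and Foxm1, transcription factors of the later cell cycle, were 1.44-fold higher, and E2f6, a repressor, was 1.38-fold higher. E2f3, an activator, was 0.865-fold, Rbbp4, a histone-binding subunit of several complexes, 0.869-fold and Rb1, the retinoblastoma protein, 0.897-fold of the DMSO level, all called lower.

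Of 20 cell cycle genes outside replication, 14 were called higher and 4 lower, with a median of 0.35, like that of the members. As shares, 70% were higher and 20% lower, where all genes tested had 31.4% and 31.1%. Ccnd1, the cyclin that acts before the E cyclins, had 2948, 2723 and 2904 reads with DMSO and 9497, 9051, 9402 and 9946 with purmorphamine (3.21-fold). Top2a, a topoisomerase of dividing cells, was 1.93-fold higher and Ccnb2, a mitotic cyclin, 1.66-fold. Myc had 369, 354 and 415 reads against 158, 168, 132 and 157 (0.392-fold), and the D cyclin partners Cdk6 and Cdk4 were at 0.635-fold and 0.824-fold. Thus Ccnd1 and Myc, with the largest change of this list in each direction, exceeded every replication gene described above. Top2a and Ccnb2 rose less than Dscc1, and Cdk4 fell less than Cdca7. Mycn and Cdkn1c were not analysed here.

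The libraries were nearly equal in depth, since the authors resampled the reads: 14341258 to 14342154 counts with DMSO and 14337225 to 14339393 with purmorphamine. Of the marker lists, the 7 mesenchymal genes summed to 188960 to 194056 reads with DMSO and 146081 to 155512 with purmorphamine, most of the difference being in Vim (0.513-fold), an abundant member. By gene, Vim and Col1a2 (0.853-fold) were called lower, Thy1 (1.67-fold), Twist1 (1.56-fold) and Prrx1 (1.17-fold) were called higher, and Col1a1 and Pdgfrb were not called. Among markers of other cell types, the leucocyte gene Ptprc had at most 1 read in any library. The endothelial genes summed to 2 to 9 reads with DMSO and 26 to 30 with purmorphamine, of which Cdh5 gave 0 and 21 to 26. The epithelial gene Cdh1 had 14 to 21 reads with DMSO and 110 to 135 with purmorphamine. Skeletal muscle markers were not analysed here. The part of these markers in the changes of the replication genes was not tested.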

How the data were processed

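RNA of 7 libraries of C3H10T1/2 cells was sequenced by the authors, as single reads of a stranded total RNA kit with ribosomal RNA removed. Per the labels, the submitters' processing notes name STAR 2.5.3a and mm9, and the gene annotation is not given in the sources used here. The authors resampled the reads to equal numbers per library, counted sense-strand reads per gene and deposited whole-number counts, which were used as deposited. Totals were 14337225 to 14342154 counts per library, all 7 columns matched a label.

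In R 4.3.3, edgeR 4.0.16 was used with TMM factors (0.978 to 1.02), a filter (minimum count 10, minimum total 15) that left 12388 of 18468 genes, and the quasi-likelihood test with Benjamini-Hochberg adjustment. A gene was called at an adjusted p under 0.2, the FDR used in the study, whose own test was limma-voom. Intervals are 95% intervals of the fit. CPM are counts per 1000000 of the library total. Ratios of partner genes used counts plus 1. The members and lists were chosen with earlier results of these data known, so lists have counts and medians and no test. Counts of every library are given for the 2 most and the 1 least changed members of each class, all members of classes of up to 4, both genes of each pair and every member called lower, and from each other list the 3 largest changes called in each direction are named. Motifs and lengths came from RefSeq (GRCm38.p6) and GENCODE M21 (GRCm38), matched by symbol and by Ensembl identifier, and 12 members (Mcm7, Cdt1, Orc2, Pola1, Prim2, Pold1, Pole, Pole2, Rfc1, Rpa1, Rrm1 and Chaf1b) share a strand and position with another annotated gene. The fit was tested on simulated data. As alternatives the fit was repeated with limma-voom (limma 3.58.1), DESeq2 1.42.0, changed scaling, changed filters and thresholds, and with each library left out. Some cell type markers are not reported here.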

Additional observations from a re-analysis of the deposited data

Results flagged for a closer look

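In 7 of 72 values examined, 1 purmorphamine library stood apart from the other 3, by its gap to the nearest library as a share of the range of the group. Chance would give about 3.6 such values, 1 in 20, if the values were independent. They were not, since the ratios use the same genes and replicates 6 and 8 were the lowest and highest in many members together. Replicate 6 was the lowest in Mcm10 (share 0.981), Pcna (0.908), Orc2 (0.856) and the log2 ratio of Pola1 to Pola2 (0.864). Replicate 8 was the highest in Mcm6 (0.866) and Rfc3 (0.867), and replicate 7 was the lowest in Pold2 (0.899). Mcm10, Pcna, Mcm6 and Rfc3 were called higher in every fit that left out 1 library. Without replicate 6, Orc2 had a log2 fold change of -0.04 and was not called, and without replicate 8 it was called lower (-0.13, adjusted p = 0.196 in edgeR's test).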

How the results depend on the processing

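All calls of the 52 genes were the same with DESeq2, limma-voom, DESeq2 size factors and no filter on low counts, and with a stricter filter they were the same for the 51 genes left. Scaling by library totals alone shifted the median of all genes by 0.048 on the log2 scale. A requirement of a 1.5-fold change left 6 members higher and 0 lower, of the 40 and 3, and an adjusted p under 0.05 left 1 lower. With the 1.5-fold requirement the other replication genes had 4 higher and 1 lower, the E2F, pocket protein and DREAM genes 0 and 0, and the cell cycle genes 4 and 2. The shares higher were 6.9%, 0% and 20% in that order, against 7.89% of all genes tested (7.56% lower). At this threshold the other replication genes thus lay near the share of all genes. Of the genes and ratios not called, Pold2 and Rpa3 changed sign with library totals alone (log2 fold change 0.014 and 0.024). Leaving out 1 library at a time gave values of both signs for Pold2 (-0.10 to 0.056), Rpa3 (-0.073 to 0.033), Gins1 (-0.18 to 0.039), Fen1 (-0.038 to 0.34) and the log2 ratio of Rrm2 to Rrm1 (-0.075 to 0.018). The cause was not tested. No paired analysis was possible because the DMSO and purmorphamine libraries carry different replicate numbers. Depth limits Fen1 and E2f2 most, with 9 to 47 reads per library.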
